A study of Homo sapiens with 8 samples.

Results

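FaDu, a human line of hypopharyngeal squamous cell carcinoma, was transfected with miR-99a-3p, and its RNA was compared on 1 two-colour Agilent array with RNA of mock FaDu cells. Transfected cells were labelled with Cy5 and mock cells with Cy3, and the labels describe the mock cells as having received no transfection. The array is 1 of 8 in the series, all with mock cells in Cy3. Transfection used Lipofectamine RNAiMAX and RNA was taken with Trizol. The dose, the time point and any control miRNA of the FaDu arrays are not given in the sources used here. Of 43317 genes with a probe, 19184 were well above background in at least 1 channel and 16482 in both, after spots with an outlier flag were left out. These 16482 genes are called measured, each is represented by its brightest probe, and its value is the log2 ratio of transfected over mock cells. A single array has no biological replicate and allows no test, no dye swap separates the dyes from the transfection, and every ratio describes this pair of RNA samples. Precision is limited by the number of arrays.

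The error given beside a ratio is the scanner's own estimate for the spot, turned to the log2 scale, and covers technical error only. Its median over the measured genes was 0.22. Among the 283 measured probes printed at 5 or more spots, the median SD between spots was 0.0640. Of 60901 gene spots, 44.5% exceeded background clearly in Cy3 and 39.6% in Cy5. The spike-in controls followed their expected log ratios with a slope of 0.883, so their ratios were compressed. The values of 2 further arrays are set beside this one, FaDu cells with miR-99a-5p, the other strand of the same hairpin, and PC3 prostate cancer cells with miR-99a-3p. Both were labelled in the same orientation, each with its own mock channel. A list median on either array covers only those measured genes of the list that were measured there too, so the gene sets can differ.

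A miRNA guides Argonaute proteins to messenger RNAs, mostly through pairing of its seed, bases 2 to 8, and paired transcripts tend to be destabilised. The gene classes described below belong to programmes known in squamous carcinoma cells. Accumulation of misfolded protein in the endoplasmic reticulum engages the sensors IRE1 (ERN1), ATF6 and PERK, and PERK and other eIF2-alpha kinases raise translation of ATF4, which switches on genes of amino acid supply and of the stress response. Basal keratins and desmosomal cadherins build the cytoskeleton and junctions of stratified epithelium, and interferon-stimulated genes encode antiviral effectors. The mature sequences (RefSeq, GRCh38.p14) are shown because the seed, in capitals, separates the transfected strand from its hairpin partner and links it to relatives. miR-99a-3p comes from chr21:16539138-16539159 on the plus strand.
miR-99a-3p: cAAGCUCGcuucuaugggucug
miR-99a-5p: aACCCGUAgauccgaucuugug
miR-99b-3p: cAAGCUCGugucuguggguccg
miR-100-3p: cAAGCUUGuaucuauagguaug

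miR-99b-3p carried the same seed as miR-99a-3p, and 2 mature miRNAs of the table had it. miR-100-3p differed from miR-99a-3p in the seed by C7U, counted from 1 at the 5′ end with the base of miR-99a-3p first.

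Of the measured genes, 903 (5.48%) had a log2 ratio below -1 and 1265 (7.68%) a log2 ratio above 1, that is, a difference of more than 2-fold. Below -2 lay 136 genes and above 2 lay 156. The median was 0.03, with quartiles at -0.36 and 0.45. The lower genes were the brighter ones: the median mock signal was 1132 for genes below -1, 215 for genes above 1 and 677 for all measured genes, in arbitrary units of the Cy3 signal. Probes dim in mock cells can only be measured as higher once transfected cells exceed the Cy5 limit, which shapes the lower left edge of the plot of ratio against signal. Where a gene below -1 had another measured probe, all its other probes were below 0 for 181 of 208 genes and below -1 for 111. For genes above 1 the other probes were all above 0 in 195 of 242 cases and all above 1 in 73.

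**Figure D1:**
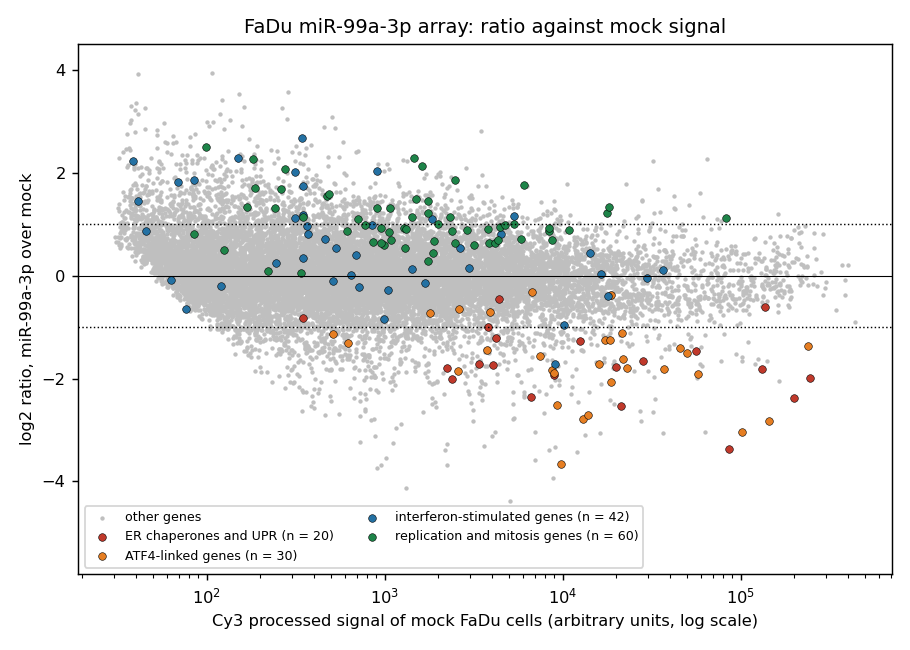
Log2 ratio of miR-99a-3p over mock against the Cy3 processed signal of mock FaDu cells (log axis) for the 16482 measured genes; coloured points are members of 4 gene lists and dotted lines mark log2 ratios of -1 and 1. The 20 genes of the endoplasmic reticulum and the 30 ATF4-linked genes all lie below 0, and the 60 replication and mitosis genes all lie above 0; the slanted lower left edge is set by the background limit of Cy5.

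Counts past 1 in the gene lists are to be read beside 5.48% below -1 and 7.68% above 1 over all measured genes. Some lists lay near these shares. Chaperones and regulators of the unfolded protein response held the lowest median of the 42 gene lists described. All 20 listed genes were measured, 16 of them lay below -1 and none above 1, and the median was -1.75. On the array of FaDu cells with miR-99a-5p the median of the same genes was -0.20, and in PC3 cells with miR-99a-3p it was 0.06. HERPUD1, which takes part in degrading misfolded proteins of the endoplasmic reticulum, had a processed signal of 86017 in mock against 8298 in transfected cells, a log2 ratio of -3.37 ± 0.38 (spot error), or 10.4-fold lower. PDIA4, a protein disulfide isomerase, stood at 21209 against 3668 (-2.53 ± 0.31). For CRELD2, a secreted stress-induced factor, the signals were 198804 and 38184 (-2.38 ± 0.30). CANX, the lectin chaperone calnexin, was at -2.36 by its brightest probe and at -1.53 by its other measured probe. The abundant chaperones were lower too, with HSPA5 (BiP) at -1.93, from 8984 to 2365, and HSP90B1 (GRP94) at -1.98 and, by a second probe, -2.35.

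Of the sensors, ERN1 was at -1.80 ± 0.26 and ATF6 at -0.46 ± 0.21. XBP1, the transcription factor whose messenger IRE1 splices, was printed at 10 spots and had a log2 ratio of -1.67 with an SD of 0.0266 between them. The 4 members above -1 were SYVN1 (-0.99), EDEM1 (-0.82), CALR (-0.61) and ATF6, and all 4 were below 0. Genes of the next step in the secretory path lay closer to 0. Of 42 measured genes of the translocon, signal recognition particle and coat complexes, 2 were below -1 (SEC24D at -1.75, a COPII coat subunit, and STT3B at -1.08, a catalytic subunit of oligosaccharyltransferase), 1 was above 1 (SEC23A, just past it at 1.00) and the median was -0.32.

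Genes linked to ATF4 and amino acid supply had the second lowest median. Of 32 listed genes 30 were measured, 25 lay below -1 and none above 1, with a median of -1.60. That median was -0.17 on the FaDu miR-99a-5p array and -0.15 on the PC3 miR-99a-3p array. DDIT3 (CHOP), the transcription factor of prolonged stress, gave 9820.2 in mock and 773 in transfected cells, 12.7-fold lower (log2 ratio -3.67 ± 0.40). Its array probe lies at chr12:57911200-57911526 and that of HERPUD1 at chr16:56977700-56977759 (hg19), and the place of a probe within its transcript was not annotated here. TRIB3, a pseudokinase induced by CHOP, gave 101417 and 12346 (-3.04 ± 0.35). ASNS, asparagine synthetase, gave 144902 and 20571 (-2.82 ± 0.33).

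ATF3 was at -2.78 by its brightest probe, while its 3 other measured probes ranged from -2.71 to -0.03. CHAC1, which degrades glutathione, was at -2.71 and -2.87 by its 2 probes. ATF4 itself was at -1.36 ± 0.24, from 239954 to 93362, so its messenger was lower as well. The enzymes of serine synthesis PHGDH (-1.82) and PSAT1 (-1.72), the mitochondrial folate enzymes MTHFD2 (-1.63) and SHMT2 (-1.50), the transporters SLC3A2 (-2.06), SLC7A11 (-1.89) and SLC7A5 (-1.25), and the tRNA synthetases WARS (-1.79), AARS (-1.56) and GARS (-1.45) were all below -1. PSPH (-0.37) and MARS (-0.31) were the members closest to 0. ALDH1L2 and FGF21 were above background in mock cells only. PCK2, a mitochondrial gluconeogenic enzyme that stood outside the list, was among the 15 lowest genes of the array at -3.40. Together both lists held 50 genes, 41 of them below -1, which made up 4.54% of all genes below -1.

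**Figure D2:**
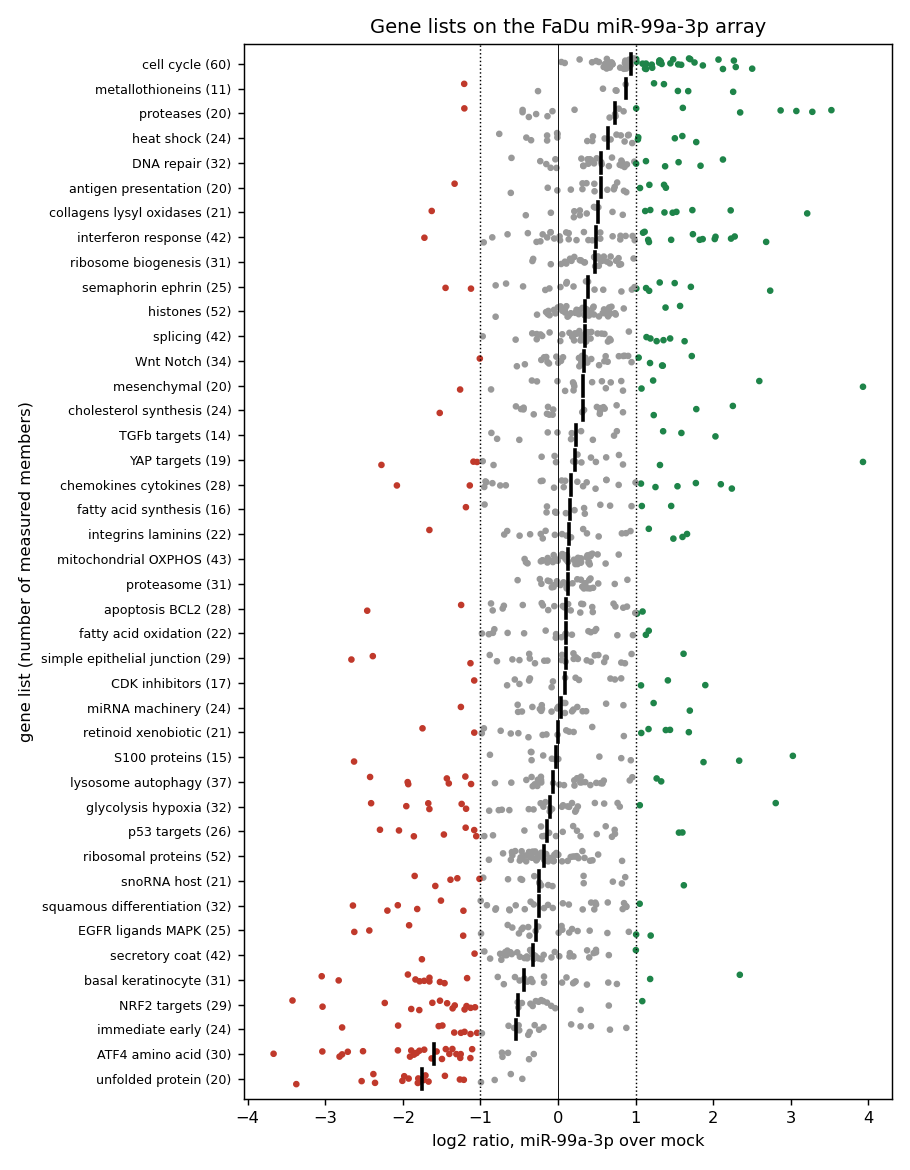
Log2 ratio of miR-99a-3p over mock for each measured member of the 42 gene lists, ordered by list median (black bar); red points are below -1, green points above 1, and brackets give the number of measured members. The unfolded protein and ATF4 lists stand apart at medians of -1.75 and -1.60, and the cell cycle list has the highest median, 0.93.

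The levels were also compared over the 4 channels of both FaDu arrays. After background correction and loess, the mean log signals of all 8 arrays of the series were given a common distribution. HERPUD1 then had log2 signals of 15.48 and 15.74 in the mock channels of the miR-99a-5p and miR-99a-3p arrays. Its signals were 15.26 in cells with miR-99a-5p and 12.42 in cells with miR-99a-3p. DDIT3 stood at 12.98, 13.04, 12.79 and 9.49 in that order. TRIB3 stood at 15.80, 16.17, 15.40 and 13.23. These 3 genes were picked for their low ratios on the miR-99a-3p array, so a low signal in its transfected cells follows from the pick. Their signals in both mock channels and in the cells with miR-99a-5p lay within a narrower band. Over the 20 unfolded protein genes, cells with miR-99a-3p were at a median of -1.59 against the mean of both mock channels and cells with miR-99a-5p at -0.23, and the mock channels differed by a median of 0.14. For the 30 ATF4-linked genes these values were -1.49, -0.20 and 0.07. Over all measured genes the mock channels had a Pearson correlation of 0.998 across genes, which are not independent replicates, and 26 genes differed by more than 1 between them. Whether both arrays received the same mock RNA is not given in the sources used here.

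**Figure D3:**
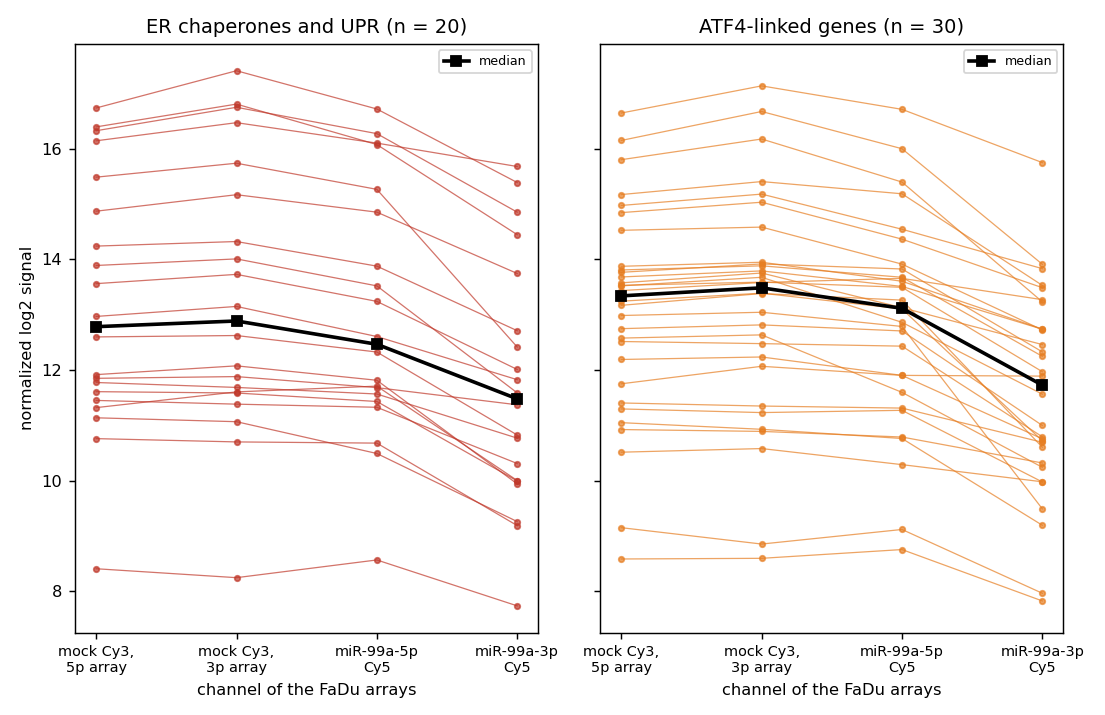
Normalized log2 signal of each measured gene (coloured lines) and the median (black) in the 4 channels of the FaDu arrays, for the unfolded protein list (left, 20 genes) and the ATF4-linked list (right, 30 genes). Signals in cells with miR-99a-3p lie below those of the other 3 channels for most genes, with median differences from the mean mock of -1.59 and -1.49.

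The promoters of these 2 classes were read from RefSeq (GRCh38.p14, 250 bases before to 50 bases after each start), because the ratios of the members lay on one side of 0. The ER stress response element, taken as CCAAT followed by CCACG with 9 bases between them on either strand, was in 25 of 27305 genes of the table (0.0916%), in 14 of 10333 measured genes with a promoter there, in 8 of 582 genes below -1 and in 0 of 884 genes above 1. Of the 20 unfolded protein genes 7 had it. Several of these genes are textbook carriers of the element, so the share in the list is background. The carriers below -1 include the list members HSPA5, HSP90B1, PDIA6, XBP1, CRELD2 and CANX, so the share below -1 is no separate result. Of the list's carriers, CALR, at -0.61, was closest to 0. The motif contains a CCAAT box, which was counted on its own as well. Examples from genes with low ratios are printed on the strand of the gene, with the fixed bases of the motif in capitals; a motif on the other strand reads as its reverse complement.
HSPA5 chr9:125241386-125241414 (- strand): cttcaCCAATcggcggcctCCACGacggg
HSP90B1 chr12:103930211-103930239 (+ strand): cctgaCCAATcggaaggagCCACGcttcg
CRELD2 chr22:49918549-49918577 (+ strand): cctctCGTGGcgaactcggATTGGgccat
XBP1 chr22:28800598-28800626 (- strand): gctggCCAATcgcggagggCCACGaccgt
PDIA6 chr2:10812848-10812876 (- strand): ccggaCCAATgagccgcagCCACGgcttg
CANX chr5:179698773-179698801 (+ strand): cccggCCAATcttcacactCCACGaagaa

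The C/EBP-ATF response element, TGATGNAA on either strand, was in 4.46% of the promoters of the table, in 2.63% of the 10333 measured genes, in 7.04% of the 582 genes below -1 (41 genes) and in 2.83% of the 884 genes above 1 (25 genes). Of the 26 ATF4-linked genes with a promoter in the table, 10 held it. Of these, SLC1A5 (-0.72), SLC7A1 (-0.72), NARS (-0.64) and MARS (-0.31) were above -1. The following examples come from this list, with ratios of -2.71 (CHAC1), -2.82 (ASNS), -2.78 (ATF3), -2.06 (SLC3A2), -1.56 (AARS) and -0.31 (MARS), and are marked in the same way. Both elements were chosen after the values of these classes had been seen, and a match of letters does not show that a factor was bound.
CHAC1 chr15:40953252-40953279 (+ strand): tcccctgccgTTgCATCActcctgccag
ASNS chr7:97872459-97872486 (- strand): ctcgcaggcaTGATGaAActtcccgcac
ATF3 chr1:212565206-212565233 (+ strand): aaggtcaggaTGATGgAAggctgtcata
SLC3A2 chr11:62881726-62881748 (+ strand): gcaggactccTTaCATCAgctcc
AARS chr16:70289676-70289703 (- strand): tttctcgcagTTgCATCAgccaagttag
MARS chr12:57488054-57488081 (+ strand): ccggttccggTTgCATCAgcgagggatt

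Targets of NRF2, the regulator of antioxidant and detoxifying genes, divided, with about as many members near 0 as below -1. Of 29 measured genes 14 were below -1 and 1 was above 1, with a median of -0.52, against -0.21 for FaDu cells with miR-99a-5p. AKR1C1, an aldo-keto reductase, gave 12007 in mock and 1119.5 in transfected cells (-3.42 ± 0.38) and -3.96 by a second probe. AKR1C3 was at -2.23 and the pseudogene AKR1C8P at -3.31; the AKR1C copies are nearly identical, so their probes may share signal. HMOX1, heme oxygenase 1, was printed at 10 spots and was at -3.04 with an SD of 0.0285 between spots, from 62982 to 7681. SLC7A11, which is also in the ATF4-linked list, was at -1.89. Other well-known members differed little, with NQO1 at -0.09 and GCLM at -0.19. AKR1B10 was the exception in the other direction at 1.09 ± 0.28, near the background of Cy3 at a mock signal of 78.9. NFE2L2, which encodes NRF2, was not well above background in either channel.

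Keratins and junction genes of stratified epithelium divided. Of 31 measured genes of the basal layer 11 were below -1 and 2 above 1, with a median of -0.43; FaDu cells with miR-99a-5p had a median of -0.01 for them. KRT6C was at -3.05 and KRT6A at -2.83 (27736 in mock, 3908 in transfected cells), while KRT6B, a near copy of both, was at 1.19 with signals of 152 and 346. The probes of these 3 keratins may share signal. KRT16 (-1.78), KRT17 (-1.73), KRT14 (-1.66, and -1.80 by a second probe) and KRT5 (-1.17) were lower as well. The desmosomal cadherins DSG3 and DSC3 stood at -1.94 and -1.84, and LAMB3, a laminin chain of the epidermal basement membrane, at -1.66. SOX2, a transcription factor of squamous tumours, was higher at 2.34 ± 0.31, from 87.9 to 446. TP63, the lineage regulator, was at -0.78, and the hemidesmosome genes ITGB4 (0.05), LAMA3 (0.11) and ITGA6 (0.37; second probe -0.46) stayed near 0. In such bulk RNA, fewer cells of a type and less RNA per cell cannot be told apart.

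Of 32 measured genes of the cornified envelope and keratinocyte differentiation 6 were below -1 and 1 above 1 (KRT80 at 1.05). The lowest were SCEL (-2.64), SPRR2A (-2.20), TGM1, a transglutaminase of the envelope (-2.07), and SPRR2E (-1.82). Another 20 listed genes, among them FLG, IVL and LOR, were not above background in either channel. By name, the keratin family held 26 measured genes with 7 below -1 and 6 above 1. As a check of the labelled cell type, all 10 listed squamous markers (TP63, KRT5, KRT14, KRT6A, KRT17, DSG3, DSC3, PKP1, SERPINB5, SFN) were measured, although 7 of them were below -1 and their median was -1.56. Of the markers of other lineages with a probe, 3 of 8 for prostate, 1 of 8 for pancreas, 1 of 7 for fibroblasts, 1 of 5 for leukocytes and 1 of 5 for endothelium were measured. Among the 7 listed leukocyte markers, the rest had no probe. Each of these lineages except fibroblasts also had markers above background in 1 channel only. HOXB13 (2.23), FOLH1 (1.14), CD14 (2.54) and COL1A1 (1.53) were above 1, although FOLH1 and COL1A1 were at 0.40 and 0.80 after normexp background correction and loess, while KLK3, PDX1, CD3E, DCN and PECAM1 were not above background in either channel.

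Immediate early genes, which respond within minutes to serum and stress, had a median of -0.54 over 24 measured members. Of these 9 were below -1 and none above 1. FOS gave 4258 in mock and 1020.1 in transfected cells (-2.06 ± 0.28), and on the FaDu miR-99a-5p array its ratio was 0.72. FOSB (-1.49), MAFF (-1.54), KLF2 (-1.34), EGR1 (-1.25) and EGR2 (-1.13) were below -1 too, as was ATF3, which the ATF4-linked list also holds. JUN (-0.19) and MYC (0.17, 9 spots, SD 0.0335) were close to 0. Among ligands of the EGF receptor family and feedback genes, NRG1 (-2.63), BTC (-2.43), AREG (-1.22) and the phosphatase DUSP1 (-1.92) were below -1, and PHLDA1 (1.19) and SPRY2 (1.01) above 1. The receptor EGFR was at -0.99 and ERBB2 at 0.05.

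Targets of p53 held 7 of 26 measured genes below -1, led by GADD45A (-2.30) and the stress cytokine GDF15 (-2.05, from 164643 to 39752), with CDKN1A at -1.08. FAS, the death receptor, was at 1.60, with its other 2 probes at 1.45 and 1.76, and TIGAR (C12orf5 in the array design) at 1.56. Autophagy and lysosome genes held 7 of 37 below -1. The lowest were genes of autophagy, WIPI1 (-2.42), MAP1LC3B (-1.94, and -2.18 by a second probe), ULK1 (-1.93) and the receptor SQSTM1 (-1.43), and the lysosomal enzymes CTSB (1.33) and GLA (1.27) were above 1. LAMP3, a lysosomal membrane protein outside the list, was among the 15 lowest genes at -3.32. Of 32 measured glycolysis and hypoxia genes, the angiogenic factor VEGFA (-2.41; second probe -1.52), HK2 (-1.96), ADM (-1.67; 10 spots, SD 0.0510) and NDRG1 (-1.66) were lowest of 6 below -1. ANGPTL4 was higher at 2.81, and it was also higher with miR-99a-5p, at 2.16; EGLN3 was at 1.05 and 1.11 on the same arrays. The core enzymes GAPDH (-0.19), PGK1 (0.22) and ENO1 (0.23) stayed near 0. Host genes of small nucleolar RNAs, whose spliced messages are turned over through translation, held 5 of 21 below -1, the lowest being EPB41L4A-AS1 (-1.85), SNHG8 (-1.58), SNHG7 (-1.39; other 3 probes -1.27 to 0.37) and SNHG5 (-1.30), and SNHG4 above 1 (1.62; second probe 0.53).

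On the higher side, the median of 60 DNA replication and mitosis genes was 0.93, with 27 above 1 and none below 0. MCM10 (2.50), GINS1 (2.29), CCNE2 (2.27) and PCNA (2.13; second probe 2.15) led them. Genes of both phases lay at the lower end, CDC25C, a phosphatase of mitotic entry, at 0.04, POLA2 at 0.09 and the primase subunit PRIM1 at 0.28. CCND1, cyclin D1, was at 1.90 over 10 spots with an SD of 0.0771. DNA repair genes had a median of 0.56 with 6 of 32 above 1, among them PCNA, which both lists hold, RAD54B (1.84, but 0.02 by a second probe), RAD54L (1.55) and LIG1 (1.38). Ribosome biogenesis factors had a median of 0.47 with none past 1 in either direction, up to NOLC1 at 0.97.

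Interferon-stimulated genes were mixed. Of 42 measured genes 13 were above 1 and 1 below -1, with a median of 0.49, beside 0.23 with miR-99a-5p in FaDu and -0.10 with miR-99a-3p in PC3 cells. IFIT3, an antiviral RNA-binding protein, gave 344 in mock and 2208 in transfected cells (2.68 ± 0.32). OAS2 was at 2.28 and IFIT2 at 2.03, with second probes at 0.79 and 0.70. RSAD2 was at 2.23 ± 0.38 from a mock signal of 38.6, close to the limit of detection (and at 0.85 after normexp and loess), and MX1 at 2.02. IRF7, a regulator of the interferon response, was the member below -1, at -1.72, and ISG15 (-0.05), a ubiquitin-like effector, did not stand apart from 0 by more than the spot error.

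The interferon-stimulated response element, taken as a pair of GAAA blocks 2 bases apart on either strand, was in 4.38% of promoters in the table, 3.87% of measured genes, 5.54% of genes above 1 (49 of 884) and 2.92% of genes below -1. It was present in 23 of 34 listed genes with a promoter, including genes whose ratio was near 0. To show both kinds, 3 examples are given from higher genes and 1 from ISG15, again with the fixed bases in capitals.
IFIT3 chr10:89327866-89327893 (+ strand): ttaaattagTTTCacTTTCcagtttcct
OAS3 chr12:112938322-112938349 (+ strand): gaaagaaacGAAActGAAAgcagggaat
MX1 chr21:41420560-41420587 (+ strand): agcagaaatGAAAccGAAActgaattgt
ISG15 chr1:1013381-1013408 (+ strand): cgggaaaggGAAAccGAAActgaagcca

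Of the other motifs, the E2F core GCGGGAA was in 15% of promoters of genes above 1, 10.3% of genes below -1 and 12.5% of all measured genes, and 7.82% of the table. The CCAAT box was in 48.5% of genes below -1, 44.3% above 1, 43.5% of measured genes and 39.7% of the table. For the AP-1 site TGANTCA these shares were 8.42%, 7.01%, 7.09% and 9.37%. All were searched on either strand.

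Genes of MHC class I antigen presentation had a median of 0.55, with 4 of 20 above 1, PSMB9 (1.39), ERAP2 (1.37), TAP1 (1.18) and TAP2 (1.06), which trim and carry peptides. The class I heavy chains, whose sequences are alike, ranged from -0.01 (HLA-F) to 0.72 (HLA-E, with a second probe at -0.33). The list's lowest members were PDIA3 (-1.33) and CALR (-0.61), chaperones of the endoplasmic reticulum, the second of which is also in the unfolded protein list. Cytokines went both ways, with TNF (2.24), CXCL1 (2.10; second probe 1.44) and IL24 (1.78) among 6 above 1, and CXCL3 (-2.08) and TNFAIP3 (-1.14) below -1 of 28 measured. Of the S100 proteins, S100A8 (3.03), S100A7 (2.34) and S100A9 (1.88) were above 1 from mock signals between 72.7 and 181, and S100P, at a mock signal of 27218, was at -2.63.

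Genes of the extracellular matrix and its proteases lay above 0 by their medians. Of 20 measured metalloproteinases, plasminogen activators and inhibitors 7 were above 1 and 1 (ADAM17, -1.21) below -1, with a median of 0.74, against 0.09 with miR-99a-5p and -0.03 in PC3 cells. PLAT, tissue plasminogen activator, was printed at 8 spots and was at 3.52 with an SD of 0.116 between them, from 151 to 1739. MMP3 (3.28) and MMP10 (3.07), 2 stromelysins, had signals of 163 and 504 in mock cells and 1578 and 4237 in transfected cells. TIMP2, an inhibitor of these enzymes, was at 2.87, and MMP9 at 2.35. Among 21 measured collagens and lysyl oxidases 8 were above 1, with COL8A1 at 3.21 from a mock signal of 39.7, the basement membrane chains COL4A2 (2.23) and COL4A1 (1.48), and COL18A1 (1.73). LOXL4 was at -1.63. Collagens were also higher in PC3 cells with miR-99a-3p, at a median of 0.93 beside 0.52 in FaDu cells. Guidance genes had a median of 0.39 with 7 of 25 above 1, with SEMA4D (2.73, but 0.33 by a second probe, and a mock signal of 52.9) and PLXND1 (1.71), and with NRP1 (-1.45; second probe -0.52) and EFNB2 (-1.12) below -1.

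Metallothioneins, which bind zinc and copper, had the second highest median, 0.87 over 11 measured members, 5 above 1. MT2A was at 2.26, from 65036 to 311007, followed by MT1L (1.68), MT1B (1.55) and MT1A (1.37), copies so alike that their probes may share signal. The zinc exporter SLC30A1, in the same list, was at -1.21. With miR-99a-5p the median of this list was 0.48 and MT2A was at 1.04. Heat shock chaperones of the cytosol and mitochondrion had a median of 0.64, with HSPE1 (1.78; second probe 1.70), HSP90AA1 (1.60; other 2 probes 0.62 and 0.64), DNAJA1 (1.51), HSPA8 (1.03) and HSPH1 (1.03) above 1 and none of 24 below -1. Besides HSPE1, the mitochondrial chaperones were HSPD1 (0.90) and HSPA9 (-0.41), and DNAJB4 was lowest at -0.76. HSPA6, an inducible HSP70, was above background in mock cells only.

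Housekeeping complexes varied little. None of 43 respiratory chain subunits (median 0.13), 31 proteasome subunits (0.13) and 52 ribosomal proteins (-0.18) was past 1 in either direction. Splicing factors had 6 of 42 above 1, led by SRSF10 (1.63; its other 3 probes from 0.61 to 1.49) and SRSF2 (1.45; second probe 0.58). In the machinery of miRNAs, DICER1, the enzyme that cuts precursor hairpins, was at 1.70 and GEMIN4 at 1.23, CNOT1, the scaffold of the deadenylase, at -1.25, and the Argonaute genes between -0.52 (AGO2) and -0.21 (AGO3). Lipid synthesis held a few higher genes, INSIG1 (1.23) and FASN (1.46), while STARD4 (-1.52) and ACSS2 (-1.19) were below -1, and SCD (-0.04) was near 0. Zinc finger genes by name, 381 measured, had a median of 0.00, with 10 below -1 and 17 above 1.

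The genes at the ends of the array came from several classes. The lowest of the genes measured in both channels was IL1RL1, the receptor of interleukin 33, at -4.38 ± 0.46, from 5048 to 243, or 20.8-fold lower. LCN2, lipocalin 2, was at -3.93 (8851 against 582), AGR2, a disulfide isomerase of secretory cells, at -3.74 and CCNA1, the germline cyclin A, at -3.68. UNC5B, a netrin receptor, was at -3.58 and SYBU at -3.55; PRPH (-3.28), C11orf96 (-3.26) and VLDLR-AS1 (-3.24) completed the 15 lowest with the genes given above. Among names without a RefSeq symbol, the lowest were the transcripts ENST00000507681 (-4.13), lnc-CHADL-1 (-3.68) and LOC344887 (-3.40). The highest measured gene was NT5E (CD73), the ectoenzyme that makes adenosine, at 3.93 ± 0.42, from 108 to 1645, with a second probe at 2.39. RIBC2 (3.91), NPR3 (3.30) and NEFM (3.26) started from mock signals of 41.3, 37.5 and 45.2, close to the lowest signal counted as above background in Cy3, 30.0. TXNIP, the thioredoxin-interacting protein, was at 3.56, from 286 to 3376, and SLC1A3, a glutamate transporter, at 3.42. Probes of 1 gene did not always give the same ratio. Besides NT5E, HMGA2 was at 3.25 by its brightest probe and at -0.16 and 0.53 by its other 2 probes, and F2R was at 3.15 and 0.32. RFX7 (3.14) and PCOLCE2 (3.05) had 1 measured probe each. Of the remaining names, ENST00000478294 (3.36), lnc-FARS2-2 (2.65) and ENST00000561588 (2.32) were highest.

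**Figure D4:**
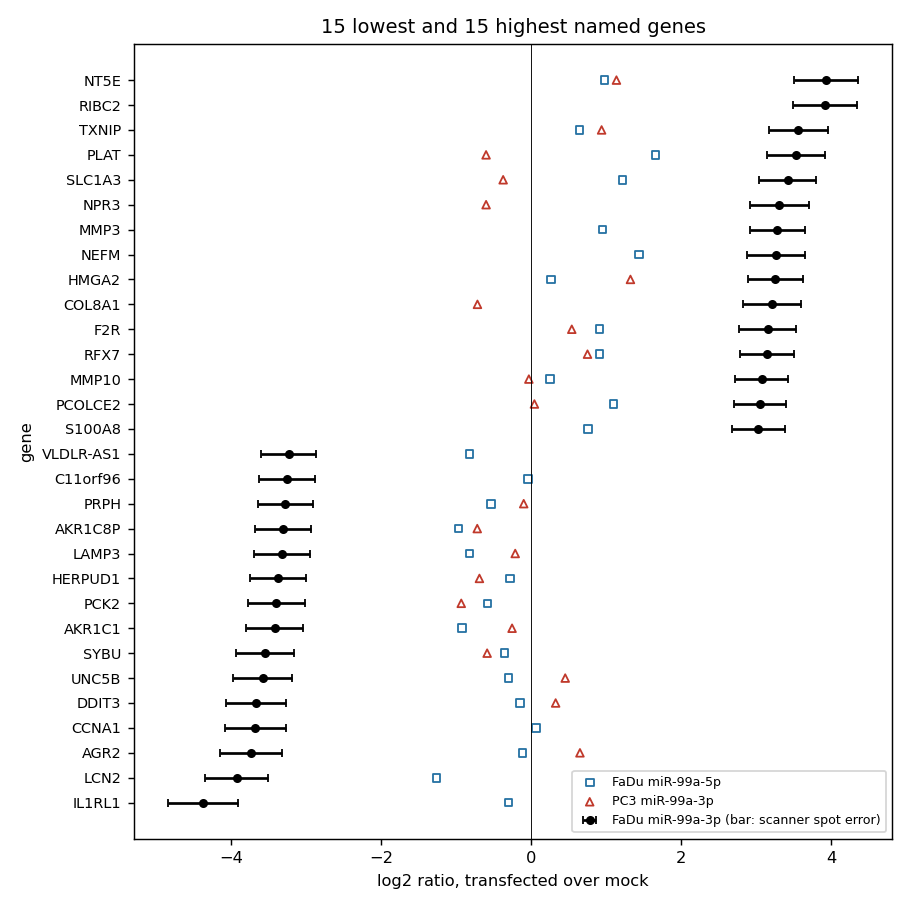
Log2 ratios of the 15 lowest and 15 highest genes with a RefSeq symbol on the FaDu miR-99a-3p array (black points, bars: spot error), with the same genes on the FaDu miR-99a-5p array (squares) and the PC3 miR-99a-3p array (triangles) where measured there. The genes were picked for their ratio on the first array; on the other arrays they lie between -1.26 (LCN2) and 1.66 (PLAT).

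Genes above background in 1 channel only received a bound. The dim channel was set to the higher of its own signal and the lowest signal counted as above background there. Cy5 was dim for 2355 genes, and 223 of them (9.47%) were at least 2-fold lower after transfection. The largest bounds were at least 25-fold for EDN2, which encodes an endothelin, 14.2-fold for PNLIPRP3, 10.8-fold for HSPA6, 9.51-fold for TLCD2 and 8.19-fold for OLAH. Some Cy5 signals up to 69.5 were not above background, and with that stricter limit these bounds were 17.5, 9.46, 7.17, 6.32 and 5.44. Cy3 was dim for 347 genes, of which 265 (76.4%) were at least 2-fold higher, where the lowest signal above background was 46.2 in Cy5 and 30.0 in Cy3. With the higher limit in Cy5, bounds of higher genes start from larger values, so the shares of lower and higher genes are not comparable. Of the genes dim in Cy3, KRT75 led with at least 14.9-fold, before LINC01213 (9.42), RAB7B (8.80) and ZBED2 (7.30).

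Probe sequences were searched for the site that pairs with the seed of miR-99a-3p. The array probes hold 60 bases of the transcript, so a probe covers a small stretch of each gene, and genes without a match in the probe may hold one elsewhere. The site CGAGCTT, which pairs with bases 2 to 8, was in 17 of 21106 measured probes, whose median log2 ratio was -0.42 with 3 below -1 and 0 above 1. Its reverse complement AAGCTCG was in 18 probes, with a median of -0.18 and 1 below -1 and 1 above 1. The shorter site GAGCTT was in 357 probes with a median of -0.20, 10.9% below -1 and 4.20% above 1, beside 6.09% and 7.32% of all measured probes and a median of 0.00. On the PC3 array of this miRNA the probes had medians of -0.19 for the long and -0.18 for the short site. The reverse complement of the long site had a median of -0.04 there, over 17 probes. The PC3 median of all probes and values for the reverse complement of the short site are not given here. The 3 probes with the site that lay below -1 are shown with the hg19 position of the probe and the site in capitals; the span of EFCAB2 is longer than its probe.
ATP9A chr20:50217402-50217461: gtgCGAGCTTccttatgacttgaat
EFCAB2 chr1:245246774-245246970: tCGAGCTTttgaggttttagattca
RND3 chr2:151325107-151325166: tgttgaaaaCGAGCTTtctttccca

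ATP9A, an endosomal phospholipid flippase gene, was at -2.21 ± 0.29 by this probe, which is not the brightest probe that represents the gene. EFCAB2 was at -1.20 ± 0.24 and RND3 at -1.07 ± 0.23, each by its brightest probe. A match of letters is a description and shows no binding.

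The same miRNA in PC3 cells gave another picture. Across 14882 genes measured on both arrays the Pearson correlation of the log2 ratios was 0.0031, given as a description, since genes are not independent replicates and both arrays share the dye orientation. Of the 759 genes below -1 in FaDu cells and 626 in PC3 cells 51 were shared, 6.72% of the first and 8.15% of the second. The first share stands beside 4.21% of all genes on both arrays below -1 in PC3. The second stands beside 5.48% of all 16482 genes measured in FaDu cells that were below -1 there. Above 1 lay 1098 and 444 genes with 91 shared, 8.29% of the FaDu genes and 20.5% of the PC3 genes. The first share stands beside 2.98% of all genes on both arrays above 1 in PC3, the second beside 7.68% of all measured genes above 1 in FaDu. Another 130 genes were above 1 in FaDu and below -1 in PC3 cells, 11.8% of those above 1 in FaDu. This share stands beside 4.21% of all genes on both arrays below -1 in PC3. In the other direction, 28 were below -1 in FaDu and above 1 in PC3 cells, 3.69% of those below -1 in FaDu. That share is near the 2.98% of all genes on both arrays above 1 in PC3. The difference between the lines was not tested, and line and array cannot be told apart.

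**Figure D5:**
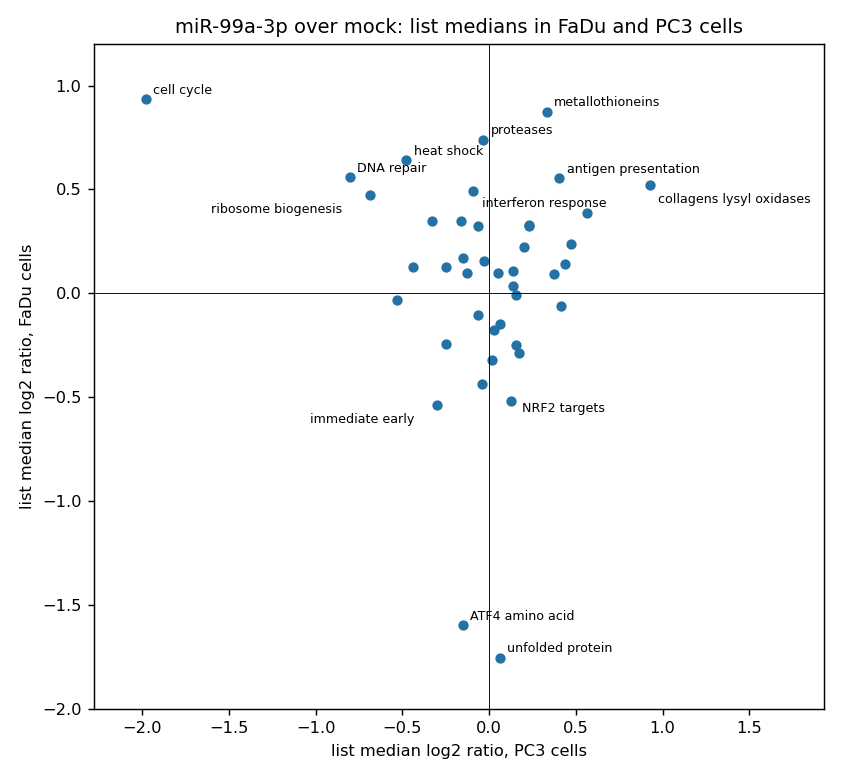
Median log2 ratio of miR-99a-3p over mock of each of the 42 gene lists in PC3 cells (horizontal axis) and FaDu cells (vertical axis), 1 array each; lists farther out are named. The unfolded protein and ATF4 lists are low on the FaDu axis and near 0 on the PC3 axis, and the cell cycle list stands at 0.93 in FaDu and -1.98 in PC3 cells.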

How the data were processed

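RNA of mock (Cy3) and miR-99a-3p-transfected (Cy5) FaDu cells was compared on 1 Agilent array, with 2 further arrays for side-by-side values. The authors' scanner software (Feature Extraction 10.7.3.1) produced the deposited intensity of each channel, corrected for background and dye on each array, and the deposited log10 ratio of Cy5 over Cy3 with its spot error. The series-wide values the authors deposited equalled the scanner ratios (largest difference 0). The ratios were not scaled between arrays. Only for the 4 FaDu channels set side by side was a step between arrays added after normexp and loess. It gave the mean log signals of all 8 arrays of the series, other cell lines included, a common distribution (limma, Aquantile).

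The log10 ratios were multiplied by 3.322 to give log2 ratios. Control spots and 128 gene spots flagged as non-uniform or as population outliers were left out; 0 were saturated. Spots of a probe were averaged, and each gene was given by its brightest probe (mean log2 of both signals, 8 arrays). Measured means well above background in both channels at most of the spots of the probe. No test was run. Gene lists (42, and 6 marker lists) are described by counts beyond log2 ratios of -1 and 1 and by medians. Genes named are the 15 lowest and 15 highest with a RefSeq symbol, the 3 lowest and 3 highest of other names, list members farthest from 0, members past 1 against their list and the 5 largest bounds each way; the others named were chosen after their values were seen. The array, lists and rules were chosen with earlier results of these data known. Array names are those of the design, annotated on hg19; 13205 measured genes matched a RefSeq symbol (GRCh38.p14), 1017 of them under a newer name. S100PBP, a binding partner, was counted in the S100 list, and some genes are in more than 1 list. Some genes that the rule names are not reported here.

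Alternatives were normexp background correction (offset 50) with loess in limma 3.58.1 (R 4.3.3), the series values, another filter, probe choice, control, threshold and centring, and subtraction of other arrays. The counting and limma steps were tested on simulated data. Tables were made in Python 3.11.15, with pandas 2.3.3 and numpy 2.4.6.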

Additional observations from a re-analysis of the deposited data

Results flagged for a closer look

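With the same miRNA, 5 gene lists had medians beyond the typical spot error in opposite directions in FaDu and PC3 cells; each rests on 1 array per line and the difference was not tested. The medians in FaDu and PC3 cells were 0.93 and -1.98 for cell cycle genes, 0.56 and -0.80 for DNA repair genes, 0.47 and -0.69 for ribosome biogenesis factors, 0.64 and -0.48 for heat shock chaperones, and 0.35 and -0.33 for splicing factors. In PC3 cells the medians covered 53 of the 60 cell cycle genes and 25 of the 32 DNA repair genes.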

How the results depend on the processing

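The counts of genes past 1 and the ratios of single genes depended on the processing. With normexp and loess 554 genes were below -1 and 701 above 1, in place of 903 and 1265, and 98.0% and 96.6% of these were among the original ones. With the mean of both FaDu mock channels as control, which uses the same correction and the step between arrays, the counts were 565 and 736. Of 201 genes named by rule that were past 1, 165 stayed past 1 in the same direction with normexp and loess and 167 against both mock channels. With normexp and loess, those in the text that did not were ACSS2, ADAM17, AKR1B10, C12orf5, CDKN1A, CNOT1, COL1A1, EFNB2, EGLN3, FOLH1, FOSB, INSIG1, JAG1, KRT6B, LAMC3, RSAD2, SLC30A1, SNHG4, SPRY2, STT3B, TAP2 and TNC. The same step lowered several of the highest ratios. RIBC2 was at 2.08 in place of 3.91, NPR3 at 1.61 in place of 3.30 and NEFM at 1.67 in place of 3.26. NT5E, at 2.79 in place of 3.93, then lay below TXNIP, at 3.16 in place of 3.56. MCM10 then lay below GINS1 (2.23) and PCNA (2.10). The order of the highest genes therefore depended on the processing. Shifts beyond the spot error were seen for 94 of 245 named genes with normexp and loess, 88 against both mock channels, 72 after subtraction of the other 7 arrays and 154 after that of the miR-99a-5p array. A filter on 1 channel in place of both gave 1797 below -1. Thresholds of 0.58 and 2 gave 2392 and 136 genes on the low side and 3150 and 156 on the high side. The stricter limit of the dim channel left 89 of 223 lower and 106 of 265 higher bounds of at least 2-fold.

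After subtraction of the FaDu miR-99a-5p array, the median was -1.49 for the unfolded protein list, -1.34 for the ATF4-linked list, 0.19 for interferon-stimulated genes, 0.35 for heat shock chaperones, 0.63 for cell cycle genes and -1.32 for the squamous markers. Subtraction of the median of the other 7 arrays moved the cell cycle list to 1.27. The squamous markers were at -1.23 with normexp and loess and at -1.22 against both mock channels. The histone list turned to -0.15 and EGLN3 to -0.060 when the miR-99a-5p array was subtracted. Under the alternatives run, no other list with a median beyond the typical spot error changed sign. Neither did any other of the 201 named genes past 1, and sign changes of the remaining named genes were not counted. The cause of these shifts was not tested. No paired analysis was possible because the FaDu comparison is a single array, which gives no estimate of biological spread. Ratios of probes near the background limit are the least certain, and the higher genes were the dimmer ones in mock cells.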

Other observations

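Further gene classes held single genes far from 0. Over all measured genes 5.48% were below -1 and 7.68% above 1, and the counts of several of these classes were near those shares. Of 29 measured genes of simple epithelium and its junctions (median 0.10, 3 below -1 and 1 above 1), ESRP1, an epithelial splicing regulator, was at -2.66, from 7829.5 to 1236, while the cadherin CDH1 was at -0.59 and cingulin (CGN) at 1.62. Of 20 mesenchymal genes (median 0.32, 1 below -1 and 4 above 1), ACTA2, smooth muscle actin, was at 2.59, the matrix protein TNC at -1.26 and vimentin (VIM) at 0.09. Integrins and laminins had 1 below -1 and 4 above 1 of 22 measured. The laminin chains LAMB1 (1.66) and LAMC3 (1.60, mock signal 37.3) were at 0.27 and 0.40 by their second probes. In the BCL2 family (2 below -1 and 2 above 1 of 28, 7.14% each way) the death gene HRK was at -2.46 and BIK at -1.25, and MCL1 at 0.44. INHBA, which encodes activin A, was at 2.03 and the receptor TGFBR2 at 1.59 among 14 TGF-beta and BMP genes (median 0.24, 0 below -1 and 3 above 1). Of 34 Wnt and Notch genes (median 0.33, 1 below -1 and 5 above 1), the ligand JAG1 was at -1.01, LRP6, a Wnt co-receptor, at 1.35, and LFNG, which glycosylates Notch, at 1.72 and, by a second probe, 0.42. Retinoid, steroid and xenobiotic genes had 2 below -1 and 5 above 1 of 21 measured. ALDH3A1, an aldehyde dehydrogenase, was at -1.75, and CYP1B1 at 1.39.

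A small group of genes had large ratios of the same sign with miR-99a-3p in both lines, and its members were picked after their values were seen. MBD2, a methyl-CpG-binding protein, was at -2.31 in FaDu and -2.62 in PC3 cells, TMEM14C at -2.10 in FaDu and -1.86 in PC3 cells, C12orf75 at -1.68 in FaDu and -2.09 in PC3 cells, SERTAD2 at -1.68 in FaDu and -1.53 in PC3 cells and ARMC10 at -1.50 in FaDu and -1.56 in PC3 cells. On the higher side were PXDN, a peroxidase of the basement membrane, at 1.98 in FaDu and 2.01 in PC3 cells, ENTPD2, an ectonucleotidase, at 2.52 in FaDu and 1.96 in PC3 cells, and DICER1 at 1.70 in FaDu and 1.71 in PC3 cells. They are among those whose smaller ratio was largest in size of the 51 genes below -1 and the 91 above 1 on both arrays.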
